A study of Mus musculus with 8 samples.

Results

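The chromatin response of macrophages to lipopolysaccharide (LPS) was compared between wild-type (WT) mice and mice with a knockout (KO) of Nfat5, and the regions whose response differed between the genotypes are described here. ATAC-seq, which uses a transposase to tag accessible DNA for sequencing, was applied to macrophages grown from bone marrow for 7 days in 25% medium conditioned by M-CSF-producing fibroblasts. The 4 groups of 2 libraries were WT untreated, WT with LPS from E. coli at 0.3 ng/ml for 2 h, KO untreated, and KO with the same LPS treatment. The series' design text calls the 2 libraries of a group biological replicates, but no label states which animal each library came from, nor which part of Nfat5 was deleted or in which cells. Peaks of all 8 lists on the 21 main chromosomes were merged where they overlapped by at least 1 base, which gave 87260 regions on build GRCm38 (mm10). For each genotype a region was scored by the number of LPS libraries that called it minus the number of untreated libraries that called it, from -2 to 2. A region was gained with LPS in a genotype at a score of 2 (both LPS libraries, neither untreated one) and lost at -2. A region entered when its WT score exceeded its KO score by 2 or more (called "WT higher" here) or fell short of it by 2 or more ("KO higher"). These were 7835 regions, 8.98% of all, with 4119 WT higher (4.72% of all regions) and 3716 KO higher (4.26%). Regions that both WT LPS libraries called and no other library did ("WT LPS only") numbered 998 (1.14%), and those called in both KO LPS libraries and in no other ("KO LPS only") numbered 209 (0.240%). The calls chose these regions, so the counts are descriptions without a test. The absence of a call is not evidence of closed chromatin, since weak peaks can fail a caller's threshold.

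LPS, which Gram-negative bacteria carry on their surface, is sensed by the receptor TLR4, which activates the transcription factors NF-kB, AP-1 and IRF3 and so the genes of inflammatory cytokines and of type I interferon. In macrophages these factors act largely at enhancers that the lineage factor PU.1 keeps open, and LPS also opens further sites. NFAT5 is a DNA-binding protein related to NF-kB and to the calcium-regulated NFAT proteins, best known as a regulator of genes induced by hypertonicity, with a further role in macrophage gene expression after Toll-like receptor stimulation.

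Peak lists held 54027 to 60117 peaks per library and no read counts, so sequencing depth is unknown, and fewer cells with an open region cannot be told apart from weaker opening in each cell. Libraries of a group shared 73.3% to 75.6% of the regions that either called. All 8 macrophage markers examined (Spi1, Csf1r, Adgre1, Cd68, Itgam, Lyz2, Fcgr1 and Mertk) had a region called in all 8 libraries, as did 10 of 26 markers of other blood and stromal cells. Those without a region over the gene included Cd3e, Zap70, Cd79a, Pax5, Elane, Dcn, Gata1 and Cpa3. Over the lists of other cell types, 15 of 277 regions (5.42%) were WT higher and 10 (3.61%) KO higher, against the shares of 4.72% and 4.26% over all regions, while 3 (1.08%) were WT LPS only and 2 (0.722%) KO LPS only. Nfat5 itself was the nearest gene of 7 regions, of which 4 were called in all 8 libraries and none was WT higher or KO higher, and these peaks check nothing about the deletion.

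Few of these regions lay at a start site, and the sequences of 6 that did are shown because their regions include both LPS only classes and because they hold letters of NFAT, AP-1, PU.1 or interferon response motifs. None of the 6 holds the NF-kB letters, and patterns such as a loss with LPS in WT only are not among them. Each is the 250 bases before a RefSeq transcription start site (GRCm38.p6), written from 5′ to 3′ on the gene's strand. Capitals mark matches on either strand to NFAT (TGGAAA), NF-kB (GGGANTTTC), AP-1 (TGANTCA), PU.1 (GAGGAAG) and interferon response (GAAANNGAA) letters, where matches can overlap. The 6 were chosen after their values were seen, and a match describes letters and is not a binding site. Serpinb2 (chromosome 1, 107511173 to 107511422, plus strand), an inhibitor of plasminogen activators made by macrophages, Mmp1b (chromosome 9, 7388027 to 7388276, minus strand), a member of the collagenase family, and Bpi (chromosome 2, 158257991 to 158258240, plus strand), an LPS-binding antibacterial protein, lay under WT LPS only regions. Igf1 (chromosome 10, 87860861 to 87861110, plus strand), a growth factor, lay under a KO LPS only region. Isg15 (chromosome 4, 156200819 to 156201068, minus strand), an interferon-induced protein modifier, and H2-DMb1 (chromosome 17, 34152941 to 34153190, plus strand), a chaperone subunit of antigen presentation, lay under a KO higher and a WT higher region.
Serpinb2: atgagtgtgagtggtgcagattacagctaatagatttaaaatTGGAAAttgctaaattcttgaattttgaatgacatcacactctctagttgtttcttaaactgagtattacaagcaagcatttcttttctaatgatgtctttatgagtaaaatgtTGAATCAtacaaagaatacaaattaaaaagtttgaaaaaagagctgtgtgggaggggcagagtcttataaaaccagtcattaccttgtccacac
Mmp1b: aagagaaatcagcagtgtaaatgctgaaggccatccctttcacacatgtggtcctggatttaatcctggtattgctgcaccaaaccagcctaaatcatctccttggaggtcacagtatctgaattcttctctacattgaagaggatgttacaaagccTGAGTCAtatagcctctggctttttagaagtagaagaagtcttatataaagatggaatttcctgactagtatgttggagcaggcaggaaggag
Bpi: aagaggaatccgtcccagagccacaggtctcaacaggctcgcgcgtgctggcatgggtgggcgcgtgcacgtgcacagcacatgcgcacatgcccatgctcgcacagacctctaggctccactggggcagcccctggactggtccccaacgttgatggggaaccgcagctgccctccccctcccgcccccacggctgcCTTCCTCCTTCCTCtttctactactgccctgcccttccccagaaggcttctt
Igf1: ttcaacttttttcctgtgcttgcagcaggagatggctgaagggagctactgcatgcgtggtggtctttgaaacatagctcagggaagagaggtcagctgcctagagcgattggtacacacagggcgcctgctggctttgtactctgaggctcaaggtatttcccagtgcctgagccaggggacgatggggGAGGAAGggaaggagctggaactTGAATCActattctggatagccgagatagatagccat
Isg15: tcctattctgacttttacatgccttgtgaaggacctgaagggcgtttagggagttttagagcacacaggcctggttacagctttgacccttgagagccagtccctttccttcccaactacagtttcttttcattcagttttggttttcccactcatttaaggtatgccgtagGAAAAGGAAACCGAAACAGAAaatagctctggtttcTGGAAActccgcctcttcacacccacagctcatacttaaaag
H2-DMb1: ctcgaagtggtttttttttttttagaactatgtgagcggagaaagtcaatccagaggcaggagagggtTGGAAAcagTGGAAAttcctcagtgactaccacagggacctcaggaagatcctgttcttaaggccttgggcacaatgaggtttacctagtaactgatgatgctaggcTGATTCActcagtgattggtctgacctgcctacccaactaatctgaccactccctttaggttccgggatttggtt

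The Serpinb2 region (107511142 to 107511509) had peaks of 360 and 348 bases in the WT LPS libraries 1 and 2 and was called in none of the other 6. The Mmp1b region (7387980 to 7388495) had 473 and 407 bases and the Bpi region (158258021 to 158258375) 319 and 227 bases in the same libraries, likewise with no other call. At Igf1 (87860694 to 87861031) the KO LPS libraries had peaks of 304 and 177 bases and the other 6 libraries none. The Isg15 window holds 3 overlapping interferon response matches, starting at positions -78, -72 and -66 from the start site, and an NFAT match at -42. The AP-1 match lies at -94 in Serpinb2, -93 in Mmp1b, -37 in Igf1 and -75 in H2-DMb1, and of these only the Igf1 match falls outside the called region.

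Genotype dependence took several forms. The most frequent WT higher pattern was the WT LPS only call, with 998 of 4119 regions (24.2%). Of the other patterns in which both libraries of every group agreed, the most frequent were 563 regions (13.7%) called only in the untreated KO libraries and 453 (11.0%) called in all WT libraries and lost with LPS in KO. Among KO higher regions 683 of 3716 (18.4%) were called in all KO libraries and lost with LPS in WT, 640 (17.2%) were called only in the untreated WT libraries, and the 209 KO LPS only regions made up 5.62%. Patterns in which the libraries of some group disagreed made up 47.7% of the WT higher and 52.9% of the KO higher regions. A score difference of exactly 2 was held by 3703 regions and of -2 by 3248. Just outside the threshold stood 16233 regions (18.6%) with a difference of 1 and 16156 (18.5%) with -1, and 47036 (53.9%) had a difference of 0.

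**Figure D1:**
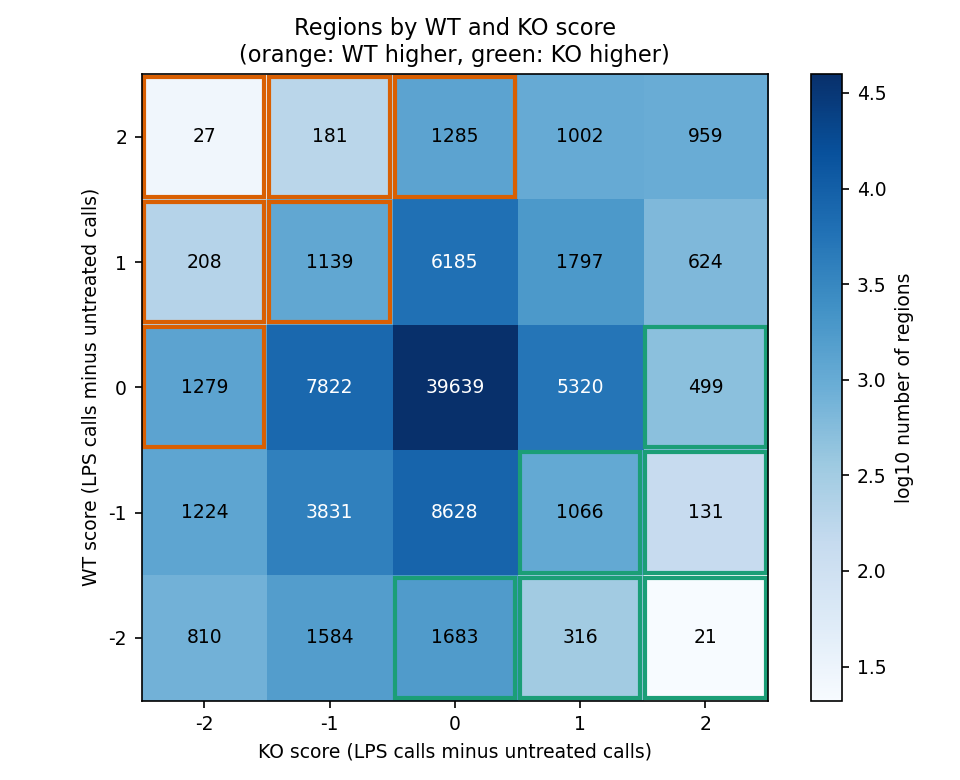
Number of the 87260 regions for each pair of WT score (vertical axis) and KO score (horizontal axis), each being LPS calls minus untreated calls. Color gives the log10 number, orange frames mark WT higher and green frames KO higher pairs. The unframed pair of 0 and 0 holds 39639 regions, and the corners of opposite response hold 27 (gained in WT, lost in KO) and 21 (lost in WT, gained in KO).

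WT LPS only regions outnumbered KO LPS only regions 4.78 to 1, while the untreated groups gave 640 WT only and 563 KO only regions, 1.14 to 1. Without KO LPS library 1 or 2 the LPS ratio turned to 0.825 or 0.598, and without WT LPS library 1 or 2 it was 7.03 or 12.9, since a group held to 1 library calls more regions by construction. With 1 library per group the LPS ratio was smaller, with 5241 regions called only in the WT LPS library and 3126 only in the KO LPS library among the 4 of replicate number 1 (1.68 to 1), and 4315 against 2883 for number 2. The WT LPS lists were longer than the KO LPS lists, with 57691 and 55506 against 54911 and 54027 peaks. At equal list length, keeping the widest 54027 peaks of each list, the counts were 893 and 327 (2.73 to 1). WT LPS only regions outnumbered KO LPS only regions under both conditions, by different factors.

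The same measure was then read in libraries that had not chosen the regions. Of the 5241 regions called only in WT LPS library 1 among the libraries of number 1, WT LPS library 2 called 34.8% (95% Wilson interval 33.5% to 36.1%) and KO LPS library 2 called 16.3%. In the reverse direction, WT LPS library 1 called 43.5% (42.0% to 45.0%) of 4315 regions and KO LPS library 1 called 21.5%. The untreated libraries called 9.20% to 15.2% of these regions. Regions chosen in 1 WT LPS library were therefore called again more often in the other WT LPS library than in any of the 3 other libraries read, for both replicate numbers. Intervals cover counting over regions only, which are not independent replicates.

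Regions chosen in a KO LPS library did not show this. Of 3126 regions called only in KO LPS library 1, KO LPS library 2 called 16.6% (15.4% to 18.0%), WT LPS library 2 13.3%, KO untreated library 2 15.8% and WT untreated library 2 14.0%. Of 2883 regions called only in KO LPS library 2, KO LPS library 1 called 22.0% (20.6% to 23.6%) and WT LPS library 1 called 22.6%. The held-out KO LPS library thus called them about as often as a WT LPS library did in one direction and 3.33 percentage points more often in the other. Untreated libraries gave values between these, with 29.5% and 26.7% (WT and KO) for WT untreated library 1 regions and 36.2% and 25.9% (KO and WT) for KO untreated library 1 regions. Library 2 of these groups gave 32.0% against 19.6% and 27.1% against 27.1%.

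**Figure D2:**
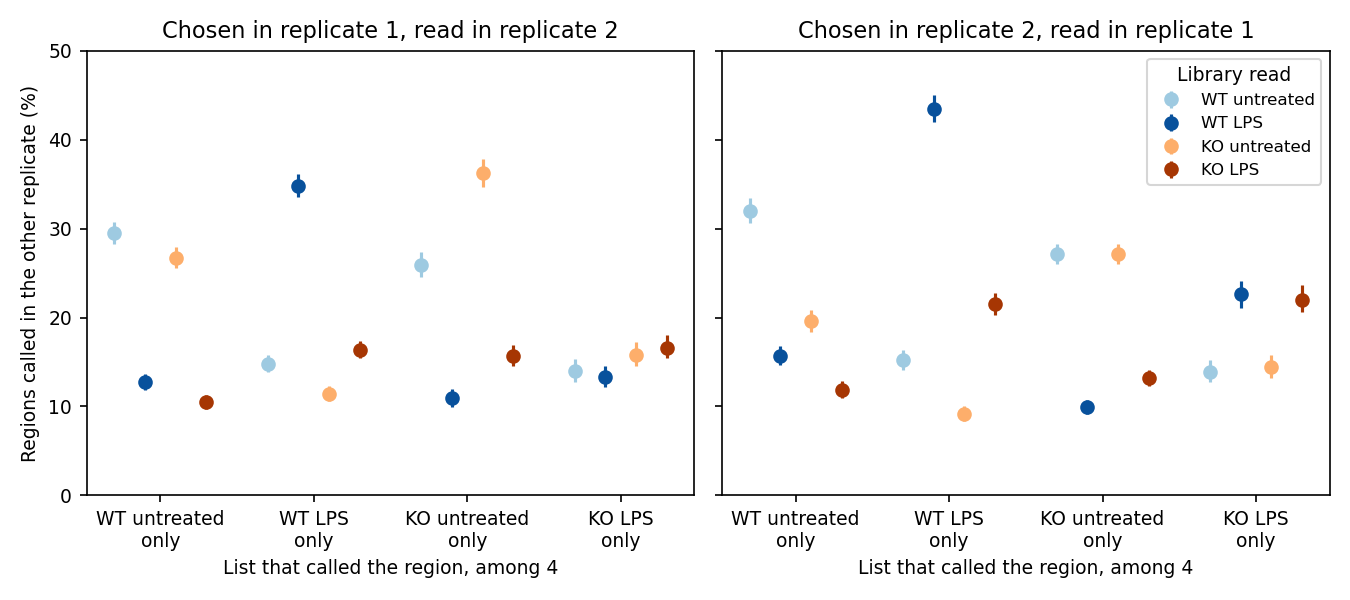
Share of regions (vertical axis, percent, with 95% Wilson intervals over regions) that each library of the other replicate number called, for regions called in only 1 of the 4 libraries of a number (horizontal axis). WT LPS regions were called again by the other WT LPS library in 34.8% and 43.5%, above the 3 other points of their column, whereas the KO LPS points of the KO LPS column (16.6% and 22.0%) lie close to the WT LPS points (13.3% and 22.6%).

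The score difference itself was also read across replicate numbers. Of 705 regions with a difference of 2 in the libraries of number 1, 29.4% had a positive and 23.3% a negative difference in those of number 2. Of 861 such regions of number 2, 27.4% were positive and 23.3% negative in number 1. For a difference of -2 the shares were 26.0% positive and 30.3% negative (858 regions), and 21.3% and 31.7% (723 regions). Regions with a difference of 0 in number 1 were 14.8% positive and 13.1% negative in number 2, and 13.2% and 14.7% in reverse. Both signs were thus more frequent at a chosen difference of 2 or -2 than at 0. The sign of the chosen difference was the more frequent one in all 4 readings. Yet fewer than 1 in 3 of the regions chosen at 2 or -2 carried it over. They were chosen within 1 replicate number, so the shares do not describe the set of 7835, which was scored over both numbers. In that set, patterns with a group split between its libraries made up 47.7% of the WT higher and 52.9% of the KO higher regions.

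These were mostly narrow peaks. In WT LPS only regions the median peak was 230 and 216 bases wide in the WT LPS libraries 1 and 2, and 80.5% and 84.2% of all peaks of those lists were wider. KO LPS only regions had medians of 247 and 220 bases, with 79.4% and 84.5% of peaks wider. The widest WT LPS only regions lay inside Syne1, which links the nucleus to the cytoskeleton (763 and 1609 bases), Ptprt, a receptor tyrosine phosphatase (1269 and 753 bases), and Rsad2, an interferon-induced antiviral enzyme (1098 and 452 bases). The rest of the 10 widest lay at Nsun7, Parp8, Nav3, Wnt10a, St3gal3, Cd247 and Cltrn. Library 1 and library 2 differed in width by over 1.5 times at Syne1, Ptprt and Rsad2, and less at Nsun7 (676 and 638 bases).

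At early LPS response genes, 15 of 328 regions were WT higher (4.57%, near the 4.72% of all regions) and 11 KO higher (3.35% against 4.26%). Of the 328, 10 were WT LPS only (3.05% against 1.14%) and 0 KO LPS only (against 0.240%). The 10 lay at 7 of the 40 genes, with 3 at Nfkb1, 2 at Il1b and 1 each at Atf3, Il6, Nfkbie, Nfkbiz and Tnfaip3. Several of these genes encode parts of the NF-kB pathway and its negative regulators. Counts on the list changed with the processing, to 11 WT LPS only regions at equal list length and 6 in lists of the widest 27013 peaks.

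Il6, an inflammatory cytokine, had a WT LPS only region 92.6 kb outside the gene (chromosome 5, 29920114 to 29920522) with 409 and 304 bases in the WT LPS libraries. A KO higher region 19.2 kb from the gene (29993680 to 29993879) was called at 176 bases in WT untreated library 2 and at 182 bases in KO LPS library 2 only, so its groups were split. Il1b, another inflammatory cytokine, had 2 WT LPS only regions among its 9. The one 16.6 kb outside the gene (chromosome 2, 129387771 to 129388024) had 224 and 246 bases, and the one 39.3 kb outside (129410425 to 129410634) had 210 and 179 bases.

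Inside Tnf, the gene of a cytokine released early by macrophages, or over its ends, a region was called in all libraries except those of KO with LPS (chromosome 17, 35200384 to 35201213). Its peaks were 334 and 652 bases in WT untreated, 172 and 415 in WT LPS, and 313 and 685 in KO untreated libraries. Within each replicate number the WT peak was narrower with LPS too, although the labels do not pair libraries by number. The WT LPS peak of library 2 (415 bases) was wider than the untreated one of library 1 (334 bases). Library 2 was the wider in each of the 3 groups. Among the other genes followed in any case, no region of Nos2 (3 regions), an enzyme that makes nitric oxide, or of the chemokine gene Ccl2 (8 regions) was WT higher or KO higher. Il12b and Ptgs2, a cytokine subunit and the inducible prostaglandin synthase, had 1 KO higher region each among 15 and 11. The Il12b region (chromosome 11, 44395598 to 44395927) was called only in untreated WT, at 278 and 330 bases. No region was assigned to Cxcl10.

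Transcription factors of the response were represented in both directions. Nfkb1, which encodes an NF-kB subunit, had 3 WT LPS only regions, of which the widest lay inside the gene (chromosome 3, 135672365 to 135672685, 321 and 260 bases) and the others had 225 and 233, and 282 and 210 bases. It also had 2 KO higher regions. Atf3, a stress-induced repressor of LPS genes, had a WT LPS only region 2.50 kb outside the gene (chromosome 1, 191167377 to 191167798, 374 and 422 bases). Irf1, a regulator of interferon and antigen presentation genes, had a region 16.5 kb away (chromosome 11, 53794879 to 53795557) that was lost with LPS in WT only, with 575 and 570 bases in WT untreated, none in WT LPS, and 601, 671, 552 and 511 bases in the KO libraries. Jun, an AP-1 subunit, had 2 KO higher regions. The widest of them (chromosome 4, 95050092 to 95050793) was called at 409 bases in WT untreated library 1 and at 702 bases in KO LPS library 1.

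In the Toll-like receptor and NF-kB signalling list, 16 of 365 regions were WT higher (4.38%), 12 KO higher (3.29%), 10 WT LPS only (2.74%) and 1 KO LPS only (0.274%), against 4.72%, 4.26%, 1.14% and 0.240% of all regions. The 10 lay at inhibitors of the pathway (Tnfaip3, Cyld, Nfkbie and Irak3), at the adaptor gene Tab2 (2 regions), at Nfkbiz and at Nfkb1 (3 regions), so 6 of them also stand on the early list. Irak3, a brake on Toll-like receptor signalling, had a region inside the gene (chromosome 10, 120177261 to 120177681) of 421 and 206 bases in the WT LPS libraries. Nfkbie, which encodes an NF-kB inhibitor, had one of 252 and 277 bases inside the gene (chromosome 17, 45557551 to 45557827). The KO LPS only region lay inside Ikbke, a kinase of the interferon branch (chromosome 1, 131270380 to 131270794), with 199 and 404 bases in the KO LPS libraries.

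The pattern of loss with LPS in WT and calls in all KO libraries was also found at 3 further genes of the early list. At Nfkbia, the gene of an inhibitor that holds NF-kB in the cytoplasm, the region 0.196 kb from the gene (chromosome 12, 55488588 to 55489213) had 521 and 498 bases in WT untreated and no peak in WT LPS libraries. In KO it had 552 and 626 bases untreated and 326 and 348 with LPS. At Il10, an anti-inflammatory cytokine, the region lay inside the gene or over its ends (chromosome 1, 131019493 to 131020036). The corresponding values were 493 and 488 in WT, none with LPS, and 436 and 441 untreated against 317 and 372 bases with LPS in KO. The Nfkbiz region of this pattern (chromosome 16, 55811756 to 55812247) had 381 and 395 bases in WT untreated, none with LPS, 490 and 386 in KO untreated and 242 and 194 in KO LPS libraries. At Nfkbia, Il10 and Nfkbiz the peaks that stayed called in KO were narrower in both LPS libraries than in both untreated ones, the direction of the WT loss.

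Late LPS response genes had 10 WT higher regions among 143 (6.99%), 5 KO higher (3.50%), 5 WT LPS only (3.50%) and 0 KO LPS only. The shares over all regions were 4.72%, 4.26%, 1.14% and 0.240% in that order. Acod1, which makes the antimicrobial metabolite itaconate, had 2 WT LPS only regions, one inside the gene (chromosome 14, 103053480 to 103054087) with 603 and 402 bases and one 1.25 kb outside (103057820 to 103058088) with 189 and 156. Edn1, the gene of a vasoactive peptide, had 2, the wider 66.1 kb outside the gene (chromosome 13, 42374107 to 42374601, 495 and 448 bases). Marco, a scavenger receptor for bacteria, had 1, 19.1 kb outside (chromosome 1, 120524157 to 120524524, 348 and 300 bases). No other of the 26 genes on the list had a WT LPS only region.

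**Figure D3:**
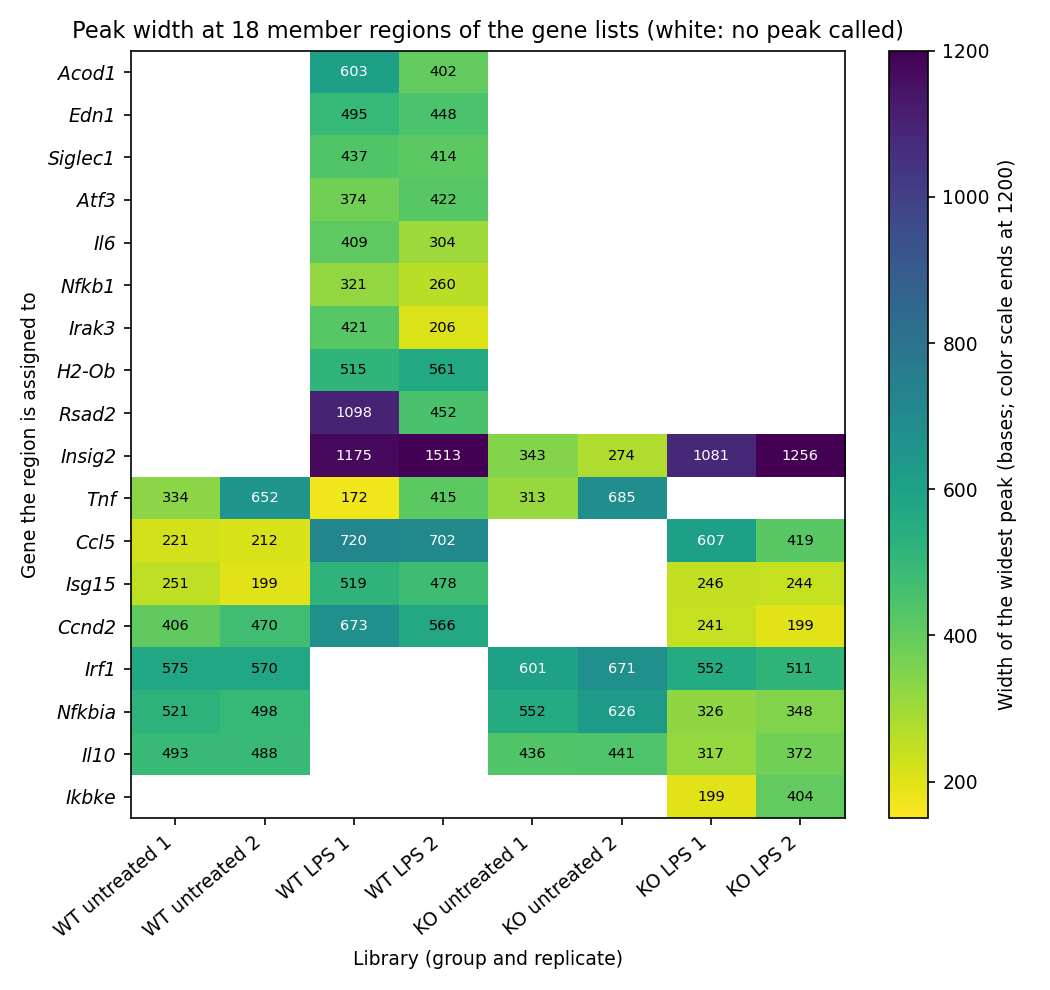
Width in bases of the widest peak (color and number, with the color scale ending at 1200 bases) in each of the 8 libraries (horizontal axis) at 18 regions, each assigned to the gene on the vertical axis, with white where no peak was called. The upper 9 genes have peaks in the WT LPS libraries only, Irf1, Nfkbia and Il10 lack them only there, Tnf lacks them only in KO LPS, and Ikbke has peaks of 199 and 404 bases in KO LPS only.

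Interferon response genes had 6 WT higher and 4 KO higher regions among 120, with 2 WT LPS only (1.67%) and 0 KO LPS only. Besides the Rsad2 region inside the gene (chromosome 12, 26441764 to 26442861), a narrow region over an end of Ccl5, a chemokine gene, was WT LPS only. It had 170 and 198 bases (chromosome 11, 83530508 to 83530705). A second Ccl5 region 3.94 kb away (83534461 to 83535180) counted as KO higher because untreated WT libraries already called it. Its peaks were 221 and 212 bases in WT untreated, 720 and 702 in WT LPS, none in KO untreated and 607 and 419 in KO LPS libraries. The Isg15 region over the start site (156200648 to 156201166) had the same form, with 251 and 199 bases in WT untreated, 519 and 478 in WT LPS, none in KO untreated, and 246 and 244 in KO LPS. At Ccl5 and Isg15 the LPS peaks were wider in both WT than in both KO libraries, so a KO higher score went with wider WT peaks in each treatment. Ifih1, a sensor of viral RNA, had 3 WT higher regions inside the gene, including one with 199 to 225 bases in all libraries but those of KO with LPS (chromosome 2, 62627936 to 62628189).

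Of 78 regions at LPS genes linked to NFAT5, which overlap the early and late lists, 4 were WT higher (5.13%) and 4 KO higher (5.13%). On this list 3 were WT LPS only (3.85%, at Il6 and Il1b) and 0 KO LPS only. For comparison, the shares over all regions were 4.72%, 4.26%, 1.14% and 0.240%. Osmotic stress genes, the best known NFAT5 targets, had 2 WT higher (1.85%) and 4 KO higher (3.70%) regions among 108. The single WT LPS only region of this list (0.926%) lay inside Slc6a6, the taurine transporter gene (chromosome 6, 91726755 to 91727025, 227 and 229 bases). Slc5a3, a myo-inositol transporter gene, and Sgk1, a kinase gene, each had a region called only in untreated WT libraries, with 232 and 300 and with 278 and 191 bases.

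MHC class II genes, which present antigen, had 5 WT higher regions among 39 (12.8%), 1 KO higher (2.56%), 2 WT LPS only (5.13%) and 0 KO LPS only, against 4.72%, 4.26%, 1.14% and 0.240% of all regions. The 5 lay at Cd74 (2), H2-DMb1 (1) and H2-Ob (2). The H2-Ob region 3.87 kb outside the gene (chromosome 17, 34249781 to 34250459) had 515 and 561 bases in WT LPS libraries and no other call, and another 3.57 kb outside (34234996 to 34235336) had 175 to 299 bases in all libraries but those of KO with LPS. The H2-DMb1 region over the start site (34152891 to 34153370) was split, with peaks in WT untreated library 2 (199 bases), WT LPS (443 and 340), KO untreated (183 and 286) and KO LPS library 1 (473), and none in WT untreated library 1 or KO LPS library 2. Ciita, the regulator of this gene group, had 1 KO higher region among 10, inside the gene (chromosome 16, 10494959 to 10495305), called at 347 bases in WT untreated library 2, at 279 in KO untreated library 1 and at 188 and 244 in KO LPS libraries. With 39 regions at a handful of genes, these shares rest on few regions. The T cell marker list reached a similar share, with 5 WT higher regions among 40 (12.5%), at Cd28 (3), Bcl11b (1) and Il7r (1), and the part of other cells in these values was not tested.

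Macrophage identity genes had 12 WT higher (4.12%) and 9 KO higher (3.09%) regions among 291, with 5 WT LPS only (1.72%) and 1 KO LPS only (0.344%). The first 2 shares lie below the 4.72% and 4.26% of all regions and the others above the 1.14% and 0.240%. Siglec1, a sialic acid receptor of macrophages that interferon induces, had 3 of the 5, all outside the gene. Their peaks were 437 and 414 bases (chromosome 2, 131096291 to 131096728), 231 and 277 (131088444 to 131088720), and 293 and 166 (131105566 to 131105858). Adgre1, which encodes the macrophage marker F4/80, had regions of both kinds inside the gene (chromosome 17), a WT LPS only one (57480259 to 57480714, 246 and 413 bases) and a KO LPS only one (57388662 to 57388984, 215 and 217 bases). Alternative activation genes had 4 WT higher (3.96%) and 6 KO higher (5.94%) regions among 101, and none of either LPS only class.

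Cholesterol and lipid handling genes had 11 WT higher (7.97%), 7 KO higher (5.07%), 6 WT LPS only (4.35%) and 0 KO LPS only regions among 138. For this and the next lists, the shares over all regions were 4.72%, 4.26%, 1.14% and 0.240%. The 6 lay at the cholesterol exporter gene Abcg1, the synthesis gene Hmgcs1, the regulators Insig1, Insig2 and Mylip, and the lipase gene Lpl, with peaks of 162 to 297 bases. Insig2, an inhibitor of sterol synthesis, also had a wide region 99.7 kb from the gene (chromosome 1, 121203092 to 121204645). It was not called in WT untreated libraries and had 1175 and 1513 bases in WT LPS, 343 and 274 in KO untreated and 1081 and 1256 in KO LPS libraries, so KO peaks were wider with LPS as well. Chemokine and receptor genes had 4 WT higher (2.67%), 5 KO higher (3.33%) and 3 WT LPS only (2.00%) regions among 150. The widest of the 3 lay inside Ccl8 or over its ends (chromosome 11, 82115882 to 82116474, 593 and 222 bases). AP-1, ATF and MAP kinase genes had 10 in each direction (4.00%) among 250, 3 WT LPS only (1.20%) and 1 KO LPS only (0.400%, at Dusp4, a MAP kinase phosphatase). Cell cycle genes had 6 in each direction (7.06%) among 85 and 3 WT LPS only (3.53%), and housekeeping genes had 4 WT higher (6.56%), 3 KO higher (4.92%) and 0 of either LPS only class among 61.

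**Figure D4:**
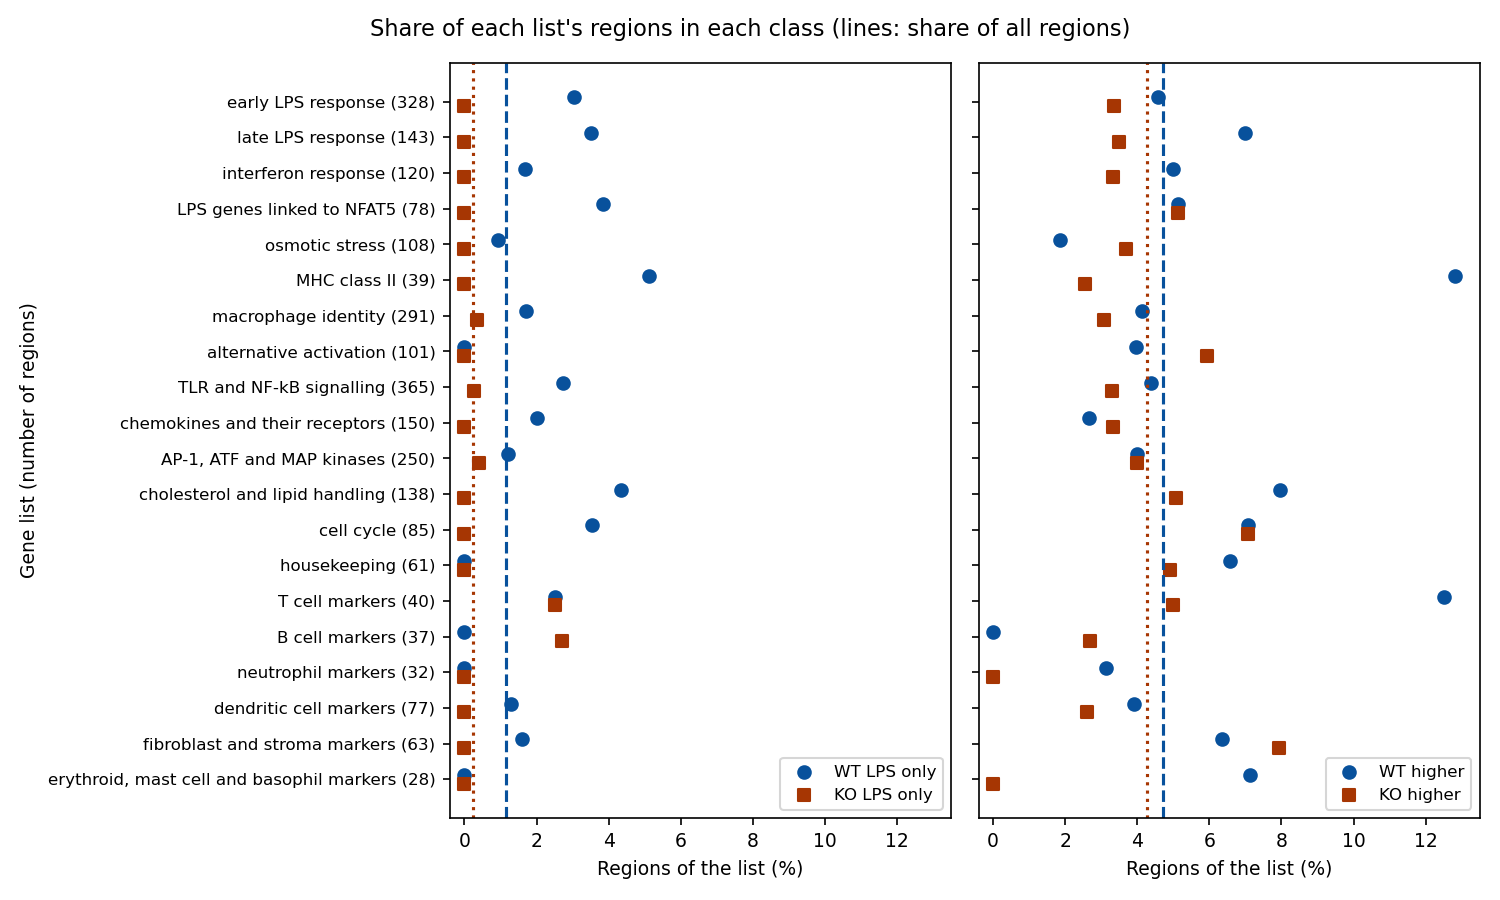
Share of each gene list's regions (horizontal axis, percent, with the number of regions in parentheses) in the LPS only classes (left) and in the WT higher and KO higher sets (right), with vertical lines at the share over all regions. WT LPS only shares of the early LPS response (3.05%), cholesterol (4.35%), cell cycle (3.53%), MHC class II (5.13%) and T cell marker (2.50%) lists lie to the right of the line at 1.14%, among others, so this is not limited to LPS lists, while on the right panel the early list (4.57%) lies near its line at 4.72%.

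KO LPS only regions, of which 161 of 209 had a gene within 100 kb, were assigned to 156 genes, and WT LPS only regions, of which 890 of 998 had one, to 802. The gene sets shared 15 genes, 9.62% of the first and 1.87% of the second, where WT LPS only and KO LPS only genes made up 4.84% and 0.941% of the 16580 genes with any region. The widest KO LPS only regions lay inside Tafa1, a secreted protein of the nervous system (899 and 398 bases in KO LPS libraries 1 and 2), Slit3 and Robo2, a guidance ligand and a guidance receptor (424 and 811, and 673 and 516 bases), near Aldh1a2, a retinoic acid synthesis gene (956 and 252 bases), and inside Eno2, a glycolytic enzyme (chromosome 6, 124768342 to 124768972, 630 and 391 bases). Ncam2, Mllt3, Rtl4, Slc44a1 and Slc26a9 completed the 10. None of these 10 genes stands on any of the 20 gene lists, and of the 5 lists of LPS or Toll-like receptor genes only the signalling list held a KO LPS only region. The 20 lists hold only 437 entries, against the 16580 genes with any region. The 5 lists had 78 to 365 regions each, and at the 0.240% of all regions such lists would hold few or none.

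Width in the genotype that was called throughout did not enter the scores. The choice still bears on it, since a region had to be called in every library of that genotype. Peaks that fell below the caller's threshold there would have left these patterns. At the 113 regions gained with LPS in WT and called in all KO libraries, the median KO peak was 269 bases untreated and 326 with LPS in library 1, and 272 and 296 in library 2. At the 196 regions gained in KO and called in all WT libraries, the WT median was 261.5 and 395.5 in library 1 and 278 and 396 in library 2. At the 683 regions lost in WT and called in all KO libraries the KO median was 362 and 267, and 360 and 265 bases. At the 453 regions lost in KO the WT median was 337 and 262, and 326 and 264. In each of the 4 patterns the genotype that kept its calls had a median width that moved in the direction of the other genotype's gain or loss, in both libraries.

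Most peaks were narrower with LPS in general. In WT, 66.6% of the regions called in all 8 libraries were narrower with LPS, against 21.4% of the regions gained in KO and 74.0% of those lost in KO. In KO, 70.3% of the regions called in all 8 libraries were narrower, against 35.4% of the regions gained in WT and 83.3% of those lost in WT. Regions called in all 8 libraries also had wider untreated peaks than these members, with medians of 577 and 585 bases in WT and 570 and 565 in KO. Regions gained in the other genotype were narrower with LPS in fewer cases than regions called everywhere. Regions lost in the other genotype were narrower in more cases. What part of this comes from the choice of regions was not tested. Btg1, a growth-inhibiting gene, had one such gained region 67.6 kb away (chromosome 10, 96690373 to 96691521), with 341 and 805 bases in WT untreated, 1142 and 1124 in WT LPS, none in KO untreated and 893 and 870 in KO LPS libraries. A region 93.6 kb from Ccnd2, which encodes a cyclin (chromosome 6, 127245741 to 127246424), had 406 and 470, 673 and 566, none, and 241 and 199 bases in the same order.

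**Figure D5:**
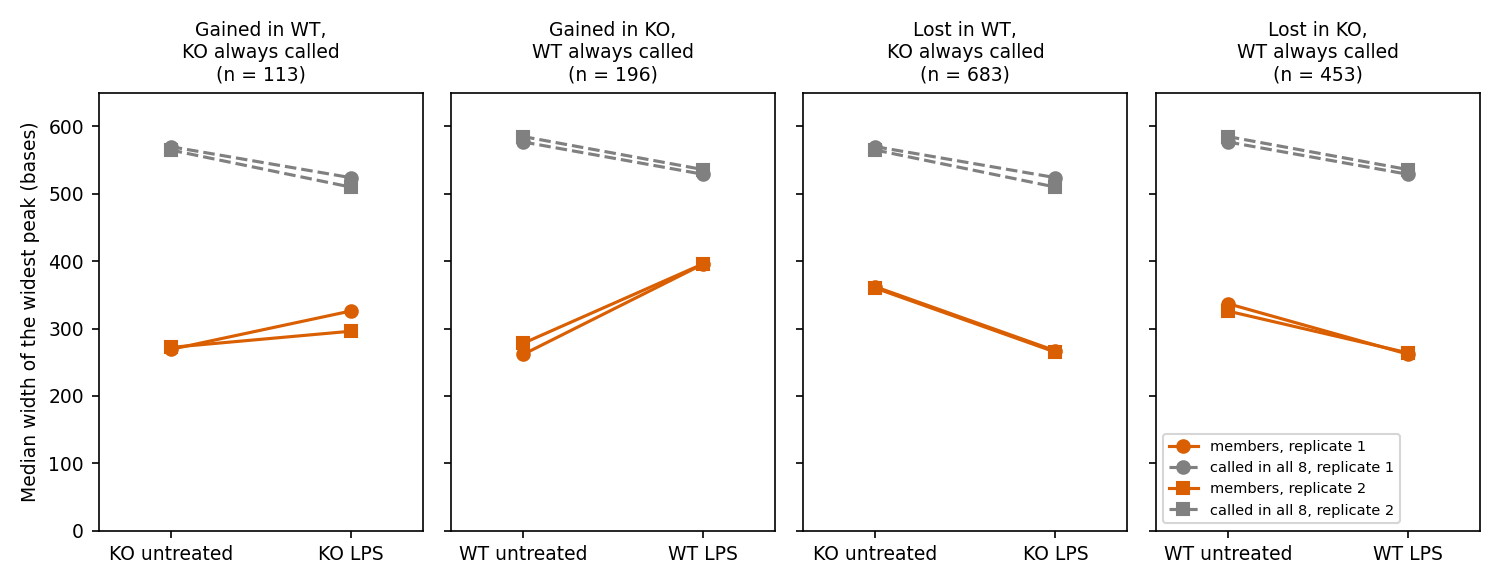
Median width of the widest peak (vertical axis, bases) in untreated and LPS libraries of the genotype that called the region in all its libraries, for the 4 call patterns (orange, circles replicate 1, squares replicate 2) and for regions called in all 8 libraries (grey). Medians go up from 261.5 and 278 to 395.5 and 396 bases in WT where the region was gained in KO, and down from 362 and 360 to 267 and 265 in KO where it was lost in WT.

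Full reversal was rare. A difference of 4, gained in WT and lost in KO, was found at 27 of the 87260 regions, and the opposite at 21. Of these, the region over a start site of Cdk6, a cell cycle kinase gene (chromosome 5, 3341908 to 3342507), had 551 and 283 bases in WT LPS and 261 and 241 in KO untreated libraries and no peak in the other 4. The region inside Stab2, a scavenger receptor gene (chromosome 10, 86948954 to 86949651), had 573 and 440 bases in WT untreated and 452 and 545 in KO LPS libraries. Cytip, a regulator of leukocyte adhesion, had a region inside the gene (chromosome 2, 58135377 to 58135733) of 355 and 352 bases in WT untreated and 269 and 271 in KO LPS libraries. Further regions of this kind at named genes lay at Lepr, Pcmtd1, Sgip1 and Tspan5 (gained in WT) and at Catspere2, Rev3l and Vangl1 (gained in KO). Of the regions with a difference of 3, one over the start of Tlr1, a receptor for bacterial lipoproteins, had 373 bases in WT untreated library 1, 315 and 412 in WT LPS, and 403 and 291 in KO untreated libraries (chromosome 5, 64933357 to 64933796).

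Some genes held several of these regions. Plcb4, a phospholipase gene with 41 regions, had 7 WT higher and 2 KO higher regions, and 3 of the 7 were WT LPS only. Foxp1, a transcription factor gene, had 6 WT higher among 55, Ptpre, a tyrosine phosphatase gene, 5 among 22, and Lrch1 5 among 22. Tnc, which encodes an extracellular matrix glycoprotein that inflammation induces, had 5 WT higher among only 13 (38.5%), of which 4 were WT LPS only. The widest of the 4 lay 77.3 kb outside the gene (chromosome 4, 64124337 to 64124866) with 502 and 400 bases in the WT LPS libraries, and the others had 165 to 236 bases. Itgb8, an integrin gene, and Etv6, an ETS factor gene, also had 4 WT LPS only regions each, among 31 and 40. On the KO higher side stood Pde4d, a cyclic AMP phosphodiesterase gene, with 8 among 86 regions, Plcb1 with 6 among 47, Vps13d with 6 among 37 and Diaph3 with 5 among 21. Across all genes 2942 had a WT higher and 2670 a KO higher region, and 783 had both, 26.6% and 29.3% of them. WT higher genes made up 17.7% and KO higher genes 16.1% of the 16580 genes with any region, and a gene with more regions can hold both more often.

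By location, WT higher and KO higher regions lay inside a gene in 53.3% and 52.2%, WT LPS only regions in 52.7% and KO LPS only regions in 47.4%, against 57.7% of all regions. Since rarely called regions differ from others in location, regions called in exactly 2 libraries are the closer comparison, with 52.5% inside a gene. Regions within 1 kb of a start site made up 5.26% of WT LPS only (51 regions), 4.04% of KO LPS only (8 regions), 6.48% of the 2-library regions and 15.1% of all. The median distance to the nearest listed start site was 20.8 kb for WT LPS only, 43.3 kb for KO LPS only, 24.1 kb for 2-library and 19.2 kb for all regions. Some genes have no listed start site, so these distances can be too long and the shares within 1 kb too low. Of KO LPS only regions 23.0% (48 of 209) lay over 100 kb from any protein-coding gene, against 10.8% of WT LPS only and 12.1% of 2-library regions.

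The distance to chromatin open in every library was also measured. Within 5 kb of a region called in all 8 libraries stood 39.0% of WT LPS only, 21.1% of KO LPS only and 25.3% of 2-library regions. Of the WT LPS only regions with a gene, 157 of 890 (17.6%) were assigned to a gene that also had a region gained in both genotypes, against 21 of 161 (13.0%) KO LPS only, 11.9% of 2-library and 13.0% of all regions. Of the 453 regions lost with LPS in KO and called in all WT libraries, 17.9% lay within 1 kb of a start site and 59.8% inside a gene. Over all regions these shares were similar, at 15.1% and 57.7%. For the 683 lost in WT and called in all KO libraries the shares were 6.19% and 49.8%. By chromosome, WT LPS only regions made up 0.852% (chromosome 15) to 1.54% (chromosome X) of regions, leaving out chromosome Y with 109 regions, and each of these 20 chromosomes held more WT LPS only than KO LPS only regions.

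Sequence was given for promoter windows only (250 bases before to 50 after a start site), so the motif letters describe the few regions that overlapped one. These were 16 WT LPS only regions over 18 windows, 3 KO LPS only regions over 3 windows, 187 WT higher over 210 and 114 KO higher over 129. AP-1 letters were in the windows of 4 of the 16 WT LPS only regions (25.0%), against 6.19% of the regions over any window and 10.6% of 2-library regions over a window. PU.1 letters were found for 5 of the 16 (31.2%, against 16.2% and 17.3%), interferon response letters for 3 (18.8%, against 8.58% and 9.13%) and NFAT letters for 2 (12.5%, against 18.9% and 23.6%), and NF-kB letters in none of the 18 windows. Of the 3 KO LPS only regions 2 had NFAT letters and 1 each had AP-1, PU.1 and interferon response letters. Neither NFAT match lay within the 250 bases before the start site. Both reached into the 50 bases after it, where places relative to the called region were not recorded. The same holds for 1 of the 3 WT LPS only regions with interferon response letters. Over the larger WT higher set the AP-1 share was 7.49%, that of NFAT 17.6% and that of PU.1 17.1%, and over the KO higher set 7.02%, 14.9% and 21.9%. Of all 32851 windows, 7.81% held AP-1 and 21.4% NFAT letters. The WT LPS only shares rest on 2 to 5 regions each. Letters were counted over the whole window, and some matches lay outside the called region. These include interferon response matches at Gm29010 and Gm38557, an AP-1 match at Rtl9, and the AP-1 and PU.1 matches at Igf1.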

How the data were processed

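Each library's deposited file was a list of peaks with chromosome, start and end, in which the authors recorded no score, count or p-value, and lists were made per library, per the labels. The submitters' processing notes name MACS2 2.1.1, Picard, Bowtie2 2.3.0 and bcl2fastq 2.17.1.14, with builds GRCm38 and mm10. Calling thresholds, duplicate handling and cut-site shifts, not given in the sources used here, decide which weak peaks enter a list. Depth is unknown, so no counting interval is given for a call.

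Regions, scores and classes were computed with Python 3.11.15, pandas 2.3.3 and NumPy 2.4.6 and checked on simulated lists with planted regions. A library called a region when a peak overlapped it by at least 1 base, and width is that of its widest peak there. Each region was assigned to the nearest of 21887 protein-coding RefSeq genes (GRCm38.p6) within 100 kb. This table gives gene bodies without exons, so exonic and intronic positions were not separated. Start sites came from 32851 RefSeq promoter windows, with none on chromosome 18. The windows lack genes elsewhere too, as regions inside Msr1 and Lpl (chromosome 8) lay 1110 and 384 kb from the nearest listed start site. Coordinates count from 1. The 20 gene lists held 437 entries (5 unmatched). The calls define the members, so no test was made on them.

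Named were the 10 widest regions by rank in each direction and LPS only class, the 5 widest with differences of 3 or 4, up to 3 genes per list and direction, the 5 genes with most members, and 10 genes in any case. Other regions named, among them further members of listed genes and the printed promoters, were chosen after their values were seen. The members, lists and rules were chosen with earlier results of these data known.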

Additional observations from a re-analysis of the deposited data

Results flagged for a closer look

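At 27 of the 87260 regions both WT LPS and both KO untreated libraries had a call and no other library did. At 21 regions both WT untreated and both KO LPS libraries had a call and no other library did. This agreement is the rule that chose these 48 regions, so the difference between genotypes was not tested. Those gained in WT include regions at Cdk6, Lepr, Cxcr1, Mapk6 and Sik1. Those gained in KO include regions at Stab2, Cytip, Sema4a and Pi16. These genes were picked after their values were seen. Peaks ranged from 156 to 738 bases over both directions.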

How the results depend on the processing

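At equal list length (widest 54027 peaks) KO LPS only regions numbered 327 and the WT to KO LPS only ratio was 2.73. In lists of the widest 27013 peaks the WT higher, KO higher and WT LPS only counts were 2167, 2226 and 441, the LPS only ratio 2.00, and the ratio of WT higher to KO higher turned to 0.973. A score difference of at least 1, 3 or 4 gave 20352, 416 and 27 WT higher and 19872, 468 and 21 KO higher regions. The held-out share of WT LPS regions exceeded that in KO LPS by 18.5 percentage points as reported, by 22.0 with replicate numbers exchanged and by 16.7 at equal list length. The same difference for KO LPS regions was 3.33, -0.555 with numbers exchanged and 5.36 at equal length. It was 2.76 for untreated WT regions, 12.4 exchanged and 4.62 with 50% of a region covered, and 10.3 for untreated KO regions but -0.0179 exchanged. The 4 class counts stayed within 1.5 times with 50% coverage (1173 WT LPS only and 277 KO LPS only) and with gaps of 100 bases joined. Over all alternatives, 320 of the counts per gene list moved by more than that and 800 did not, and of the location shares 11 moved outside their 95% binomial interval and 21 did not.

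Leaving out 1 library gave 5267 to 7631 WT higher, 4545 to 7160 KO higher, 1053 to 3593 WT LPS only and 244 to 2138 KO LPS only regions, with LPS only ratios of 0.598 to 12.9 and WT higher to KO higher ratios of 0.736 to 1.68. The LPS only ratio was below 1 without KO LPS library 1 (0.825) or 2 (0.598), and 7.03 or 12.9 without a WT LPS library, because an arm held to 1 library calls more regions by construction. Without an untreated library it was 3.86 to 4.64. No paired analysis was possible because the results come from no test, and a score is the same sum whether libraries are paired by number or not. Motifs in a window around each region's centre were not run, since no genome sequence was used here. The start-site distance was added after seeing the data. Missing calls are limited by the unknown depth.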
